A study of Mus musculus with 18 samples.

Results

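Enzymes that attach sugars or sulfate to fat-soluble molecules, and esterases that cut ester bonds, were measured in ileum cells of mice on chow or on a fat-rich diet. UDP-glucuronosyltransferases (Ugt genes) sit in the endoplasmic reticulum and move glucuronic acid from UDP-glucuronic acid onto bilirubin, steroids, bile acids and drugs. Cytosolic sulfotransferases (Sult genes) move a sulfonate group from the donor PAPS onto phenols and sterols, and carboxylesterases (Ces genes) hydrolyse esters of drugs and of dietary and stored lipids. Enterocytes, the absorptive cells of the gut lining, express many of them, so that a compound taken up from the lumen can be altered and pumped out again before it reaches the liver.

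The genes were chosen by name: every gene on the array whose name begins with Ugt, Sult or Ces and a digit, and with a probe flagged by the scanner software as well above background in 5 or more of the 6 arrays of at least 1 group. Of 53 such gene names, 33 passed, out of 21542 gene names that passed in all, and the brightest probe stood for each gene. They were 12 of 15 Ugt, 8 of 19 Sult and 13 of 19 Ces genes. The 12 Ugt genes were Ugt1a6a, Ugt1a6b, Ugt1a10, Ugt2a1, Ugt2a3, Ugt2b5, Ugt2b34, Ugt2b35, Ugt2b36, Ugt2b37, Ugt2b38 and Ugt3a2. The 8 Sult genes were Sult1a1, Sult1b1, Sult1c1, Sult1c2, Sult1d1, Sult2a8, Sult2b1 and Sult4a1. The 13 Ces genes were Ces1c, Ces1d, Ces1e, Ces1f, Ces1g, Ces2a, Ces2b, Ces2c, Ces2e, Ces2f, Ces2g, Ces3a and Ces3b. The other 20 names (Ugt2b1, Ugt3a1, Ugt8a, Sult1e1, Sult2a1 to Sult2a7, Sult3a1, Sult5a1, Sult6b1, Ces1a, Ces1b, Ces1h, Ces2h, Ces4a and Ces5a) were well above background on at most 1 array of any group. The genes nearest the limit were Ces3b, which passed only through 5 of 6 iPGC1a-/- arrays, and Ugt3a2, which passed only through 5 of 6 chow arrays, while Ces1h, Sult5a1 and Ugt3a1 reached 1 of 6.

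There were 3 groups of 6 mice on a C57BL6/J background, with 1 Agilent one-colour array per mouse. Floxed mice (iPGC1afl/fl) carry loxP sites around part of Ppargc1a, the gene of the transcriptional coactivator PGC1α,. In iPGC1a-/- mice a Cre driven by the promoter of villin, an intestinal epithelial gene, removes exons 3 to 5 of it in that epithelium. One floxed group received chow for 8 weeks from the age of 8 weeks, and the other floxed group and the iPGC1a-/- group received a high-fat diet (HFD, the Western diet of the study) with 42% of its kcal as fat, enriched in saturated milk fat, and 0.2% cholesterol. All mice were fasted and killed at ZT 3, which is 3 h after lights on, and cells were released from the ileum with a chelating buffer, so the RNA is of a mixed cell suspension and not of sorted cells. iPGC1a-/- mice on chow were not analysed here. Each of 3 slides held 2 arrays of every group. By array, 56.3% to 62.3% of spots stood well above background.

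Ppargc1a itself was measured by 2 probes (chr5:51848928-51848987 and chr5:51849419-51849478, mm9, minus strand). At the brighter probe, the log2 signal ran from 10.104 (median 11.17) to 11.25 in floxed chow mice, from 11.26 (median 11.40) to 11.45 in floxed HFD mice and from 11.36 (median 11.63) to 12.01 in arrays labelled iPGC1a-/-. The signal was not lower in the arrays labelled iPGC1a-/- (log2 difference from floxed HFD 0.30 ± 0.16 SE, adjusted p = 0.573). The study reported the loss of Pgc1α by RT-qPCR in the parts of the intestine. Whether the array probes lie inside the deleted exons was not determined here, so directions by genotype below refer to the labels.

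Many of these genes are near copies of a neighbour, and the probe sequences show where one spot can read more than one transcript. Each probe is 60 bases long. Among the pairs compared, the longest run of identical bases was 24, between Ces2b (chr8:107362421-107362480) and Ces2c (chr8:107378258-107378317, both mm9, plus strand). The next was 18, between Ugt2b37 (chr5:87669707-87669766) and Ugt2b5 (chr5:87554155-87554214, both mm9, minus strand). The shared runs are in capitals.
Ces2b: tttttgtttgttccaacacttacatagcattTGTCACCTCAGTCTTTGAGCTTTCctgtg
Ces2c: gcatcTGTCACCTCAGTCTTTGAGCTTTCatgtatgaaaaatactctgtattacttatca
Ugt2b37: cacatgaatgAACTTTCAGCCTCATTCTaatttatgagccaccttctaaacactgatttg
Ugt2b5: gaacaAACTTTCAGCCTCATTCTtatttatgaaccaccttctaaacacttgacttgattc

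Over the aligned stretch that holds the run, 31 of 34 bases matched for Ces2b and Ces2c and 46 of 55 for Ugt2b37 and Ugt2b5. No other pair within a family shared a run longer than 11 bases. Probes were not compared with the transcripts of other genes, so a short shared run does not show that a probe reads 1 gene only. The array files also list, for 7 of the probes, transcripts of more than 1 gene. These were Ugt2a1 (with Ugt2a2), Ugt2b36 (with Ugt2b37), Ces2c (with the pseudogene Ces2d-ps), Ces3a (with Ces3b), and the Ugt1a10, Ugt1a6a and Ugt1a6b probes. The Ugt1a genes are made by joining alternative first exons to a common set of later exons, and the brightest Ugt1a6b probe (chr1:90115493-90115552, mm9, plus strand) is listed for Ugt1a10, Ugt1a6a, Ugt1a6b and Ugt1a7c. Values of these genes are uncertain as to which copy they read.

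In floxed mice, 10 of the 33 genes were higher on HFD than on chow and none was lower. They were 5 glucuronosyltransferases (Ugt2a3, Ugt2b38, Ugt2b36, Ugt2b5 and Ugt2a1) and 5 carboxylesterases (Ces2b, Ces3a, Ces2c, Ces2f and Ces2a), at 1.52-fold to 2.18-fold, and none of the 8 sulfotransferases was among them. A gene was called when its limma adjusted p was 0.05 or lower and its fold change above 1.5. Of all 21542 genes, 8.43% were called, 3.22% as higher and 5.2% as lower, against 30.3% of the 33 genes. At an adjusted p of 0.05 whatever the fold, 17 of the 33 were past the threshold, against 24.6% of all genes. The median log2 fold change of the 33 genes was 0.37, against 0.0031 over all genes. Values above 0 numbered 28 of 33, against 10876 of all 21542 genes. The 6 HFD arrays all lay above the 6 chow arrays for 8 of the 33 genes, against 5.11% of all genes. Within each of the 3 slides, all 10 called genes were higher on HFD. They were called from these same arrays, so this is not a separate check. Ugt2a1 lay closest to the fold threshold and fell below it when any 1 of 6 arrays was left out (floxed chow replicates 2, 4 and 6, floxed HFD replicates 2 and 6, and iPGC1a-/- replicate 5).

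**Figure D1:**
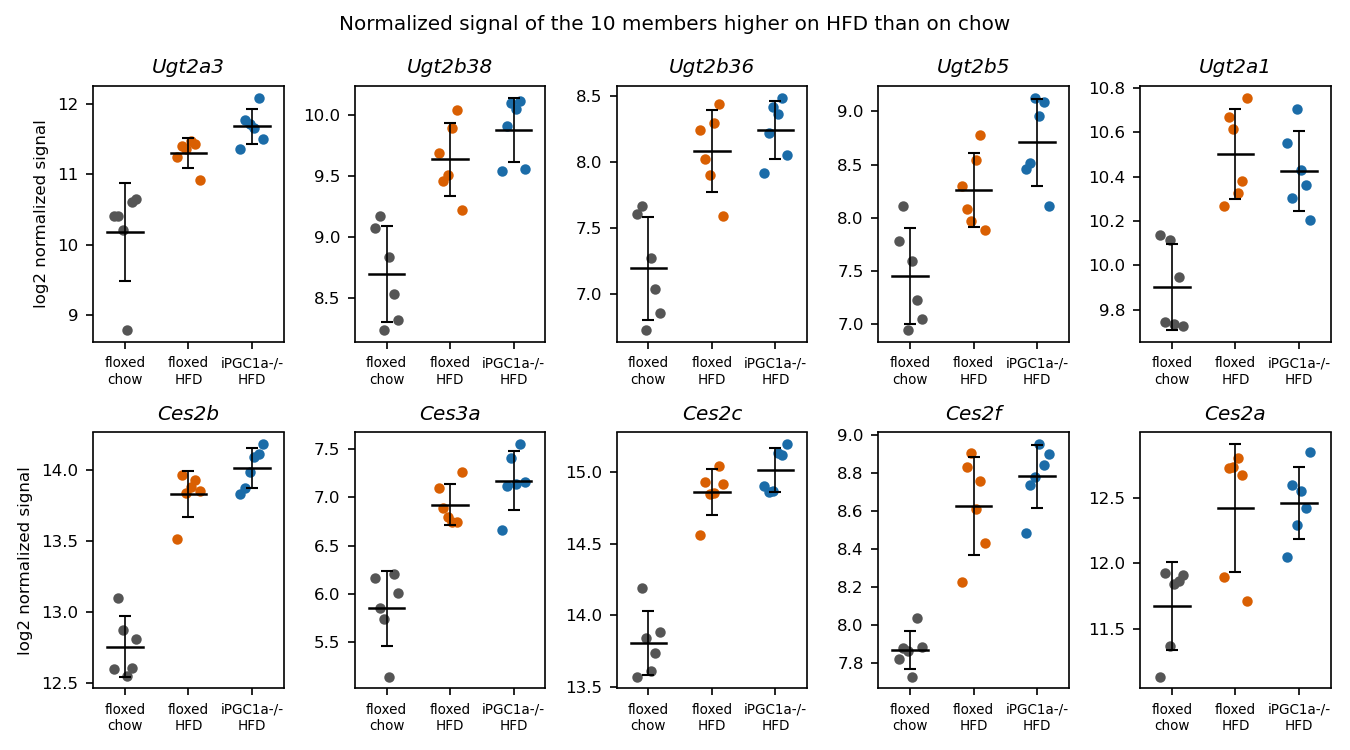
Log2 normalized signal (y axis, own range in each panel) of the 10 genes called higher on HFD, with 1 point per array, the group mean as a long line and the SD as the error bar. For Ugt2a3, Ugt2b38, Ugt2a1, Ces2b, Ces3a, Ces2c and Ces2f the 6 floxed HFD points lie above all 6 chow points, and for Ugt2b36, Ugt2b5 and Ces2a the groups overlap.

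Ugt2a3, an enzyme known for glucuronidation of bile acids, was higher on HFD. Its log2 signal (chr5:87754406-87754465, mm9, minus strand) ran from 8.79 (median 10.41) to 10.65 in floxed chow mice, from 10.92 (median 11.39) to 11.48 in floxed HFD mice and from 11.36 (median 11.69) to 12.09 in iPGC1a-/- HFD mice. The 2 floxed groups did not overlap, and one chow array, replicate 4, lay far below the other 5. The log2 fold change on HFD was 1.13 ± 0.23 (SE, 6 mice a group, adjusted p = 0.00123), and 0.85 without that array (the lowest value when 1 array was left out).

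The Ugt2b enzymes glucuronidate steroids and other lipophilic compounds. For Ugt2b38 (chr5:87839345-87839404, mm9, minus strand), the log2 signal ran from 8.24 (median 8.69) to 9.18 on chow, from 9.22 (median 9.60) to 10.04 in floxed mice on HFD and from 9.54 (median 9.98) to 10.11 in iPGC1a-/- mice. The lowest HFD array lay just above the highest chow array, and the log2 fold change was 0.94 ± 0.17 (adjusted p = 0.000434). Ugt2b36, whose probe spans an intron (chr5:87495455-87509913, mm9, minus strand), ran from 6.72 (median 7.15) to 7.66 on chow, from 7.59 (median 8.13) to 8.44 in floxed HFD mice and from 7.92 (median 8.29) to 8.49 in iPGC1a-/- mice. Here 1 HFD array lay within the chow range, and the log2 fold change was 0.89 ± 0.16 (adjusted p = 0.00055). Ugt2b5 ran from 6.95 (median 7.41) to 8.11 on chow, from 7.89 (median 8.19) to 8.77 in floxed HFD mice and from 8.11 (median 8.74) to 9.13 in iPGC1a-/- mice. In this gene 3 of the HFD arrays lay below the highest chow array, with a log2 fold change of 0.80 ± 0.21 (adjusted p = 0.00837). Ugt2b37, whose probe shares the run printed above with Ugt2b5, had a log2 fold change of 0.56 ± 0.15 (adjusted p = 0.0109), or 1.47-fold, and so stayed under the fold threshold.

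Ugt2a1 is best known from the olfactory epithelium, where it glucuronidates odorants. In these ileum cells its log2 signal (chr5:87889468-87889527, mm9, minus strand) ran from 9.73 (median 9.85) to 10.14 on chow, from 10.27 (median 10.50) to 10.76 in floxed HFD mice and from 10.20 (median 10.40) to 10.71 in iPGC1a-/- mice. The floxed groups did not overlap, and the log2 fold change was 0.60 ± 0.11 (adjusted p = 0.000454). The remaining Ugt2b genes differed less: Ugt2b34 had a log2 fold change of 0.33 ± 0.10 (adjusted p = 0.0192), and Ugt2b35 one of -0.02 ± 0.10 (adjusted p = 0.916).

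None of the 3 Ugt1a genes was called. At the brightest Ugt1a6b probe, listed for transcripts of 4 genes, the log2 signal ran from 14.17 (median 14.46) to 14.69 on chow and from 14.72 (median 14.83) to 15.13 in floxed HFD mice. These arrays did not overlap, yet the log2 fold change of 0.42 ± 0.09 (adjusted p = 0.00294) was 1.34-fold and under the fold threshold. Of the other 2 Ugt1a6b probes, one differed by a log2 value of 0.49 ± 0.12 (adjusted p = 0.00595) and the other, far upstream at chr1:90004249-90004308 (mm9, plus strand), by 0.04 ± 0.14 (adjusted p = 0.867). Both of these probes are listed for Ugt1a6b alone. The first, however, lies at chr1:90114900-90114959 (mm9, plus strand), near the brightest probe that is listed for 4 genes. Which Ugt1a transcripts the first probe reads was not determined. The mean log2 signal on chow was 12.70 at the first and only 5.55 at the upstream probe. Ugt1a6a differed by 0.45 ± 0.16 (adjusted p = 0.0445) and Ugt1a10 by 0.37 ± 0.17 (adjusted p = 0.126). Ugt3a2, well above background on 5 of 6 chow, 3 of 6 floxed HFD and 4 of 6 iPGC1a-/- arrays, differed by -0.02 ± 0.09 (adjusted p = 0.922).

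Among the carboxylesterases, the called genes all came from one stretch of chromosome 8. The 8 Ces2 and Ces3 probes lie between 107263207 and 107615543 on mm9, and 5 of them were called, with a median log2 fold change of 0.75. The 5 Ces1 probes lie on the same chromosome between 95624607 and 95826781, none was called, and their log2 fold changes ran from -0.31 to 0.54 with a median of 0.04. On chromosome 5 (87318849 to 87889527), 5 of 8 Ugt2 genes were called. The 3 Ugt1 genes on chromosome 1 had log2 fold changes from 0.37 to 0.45, 2 of them past the adjusted p threshold and none at 1.5-fold. Differences between these gene groups were not tested.

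Ces2c, an intestinal and hepatic esterase that hydrolyses acylglycerols, ran from a log2 signal of 13.57 (median 13.79) to 14.19 on chow, from 14.57 (median 14.89) to 15.05 in floxed HFD mice and from 14.86 (median 15.01) to 15.20 in iPGC1a-/- mice. Its neighbour Ces2b ran from 12.55 (median 12.71) to 13.10, from 13.51 (median 13.86) to 13.97 and from 13.83 (median 14.04) to 14.18 in the same groups. Neither gene had a chow array within the HFD range. The log2 fold change was 1.06 ± 0.10 for Ces2c (adjusted p = 8.07e-07) and 1.07 ± 0.10 for Ces2b (adjusted p = 4.63e-07), and these are the 2 probes with the shared run of 24 bases.

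Ces2f (chr8:107478540-107478599, mm9, plus strand) had a log2 signal from 7.73 (median 7.87) to 8.04 on chow, from 8.23 (median 8.68) to 8.90 in floxed HFD mice and from 8.48 (median 8.81) to 8.95 in iPGC1a-/- mice. Its floxed groups did not overlap, and the log2 fold change was 0.76 ± 0.11 (adjusted p = 3.33e-05). Ces2a (chr8:107263207-107263266, mm9, plus strand), which hydrolyses acylglycerols, ran from 11.14 (median 11.86) to 11.93 on chow, from 11.71 (median 12.70) to 12.80 in floxed HFD mice and from 12.05 (median 12.49) to 12.85 in iPGC1a-/- mice. For Ces2a, 2 of the floxed HFD arrays lay within the chow range and 4 well above it. The log2 fold change of Ces2a was 0.75 ± 0.19 (adjusted p = 0.00847), and it was 1.44 on slide 1 against 0.43 and 0.37 on slides 2 and 3.

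Ces3a, an esterase known mainly from the liver (chr8:107582236-107582295, mm9, plus strand), ran from 5.15 (median 5.93) to 6.21 on chow, from 6.74 (median 6.84) to 7.27 in floxed HFD mice and from 6.66 (median 7.15) to 7.55 in iPGC1a-/- mice. The floxed groups lay apart, with a log2 fold change of 1.07 ± 0.16 (adjusted p = 8.2e-05). Its relative Ces3b was well above background on 0 of 6 chow, 1 of 6 floxed HFD and 5 of 6 iPGC1a-/- arrays. Both floxed groups were thus near background, and its log2 fold change on HFD of 0.26 ± 0.11 (adjusted p = 0.0843) is not read as a result. Ces2e had a log2 fold change of 0.48 ± 0.10 (adjusted p = 0.00109), or 1.39-fold, and Ces2g one of 0.13 ± 0.16 (adjusted p = 0.575). In the Ces1 group, Ces1e differed by 0.54 ± 0.16 (adjusted p = 0.0195), or 1.46-fold. The plasma esterase Ces1c differed by -0.31 ± 0.16 (adjusted p = 0.181), Ces1d by -0.18 ± 0.36 (adjusted p = 0.756), Ces1f by 0.04 ± 0.16 (adjusted p = 0.88) and Ces1g by 0.44 ± 0.19 (adjusted p = 0.0982).

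**Figure D2:**
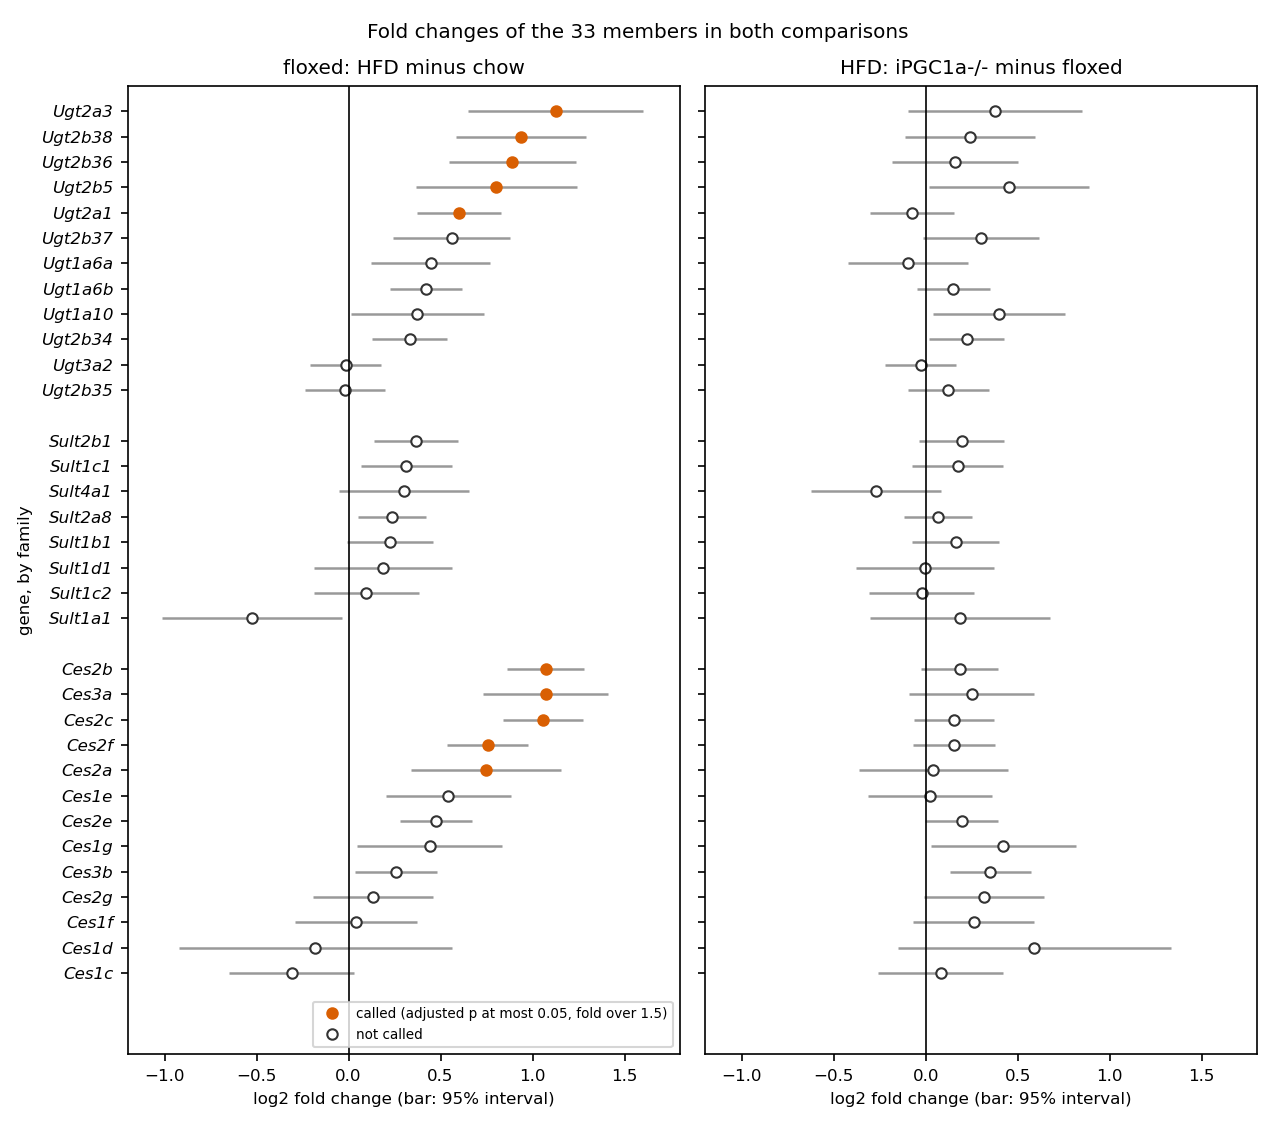
Log2 fold change (x axis) with its 95% interval for each of the 33 genes (y axis, by family and by the diet difference), for HFD minus chow in floxed mice on the left and for iPGC1a-/- minus floxed on HFD on the right. Filled points, all on the left and all above 0, mark the 10 called genes, and in the genotype panel no point is filled.

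None of the 8 sulfotransferases was called with diet. Their median absolute log2 fold change was 0.27, against 0.17 over all genes. Sult2b1, which sulfates cholesterol and related sterols, ran from a log2 signal of 14.21 (median 14.44) to 14.71 on chow, from 14.49 (median 14.82) to 15.11 in floxed HFD mice and from 14.82 (median 14.95) to 15.23 in iPGC1a-/- mice. The floxed groups overlapped, and its log2 fold change on HFD was 0.37 ± 0.11 (adjusted p = 0.0195), or 1.29-fold, under the fold threshold. Sult1a1, the phenol sulfotransferase, ran from 6.68 (median 6.95) to 8.39 on chow and from 6.27 (median 6.66) to 7.26 in floxed HFD mice. It was the only sulfotransferase of the 8 with a value below 0, at -0.53 ± 0.23 (adjusted p = 0.113), and its second probe gave -0.47 ± 0.20 (adjusted p = 0.097). Leaving out 1 array moved Sult1a1 between -0.66 without floxed HFD replicate 1, where it passed as lower (adjusted p = 0.0487), and -0.32 without chow replicate 3 (adjusted p = 0.218).

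Sult1c1 ran from 6.07 (median 6.23) to 6.44 on chow and from 6.32 (median 6.49) to 6.91 in floxed HFD mice, with a log2 fold change of 0.31 ± 0.12 (adjusted p = 0.0617). The other sulfotransferases gave log2 fold changes of 0.30 ± 0.17 for Sult4a1 (adjusted p = 0.211), 0.23 ± 0.09 for Sult2a8 (adjusted p = 0.0618) and 0.23 ± 0.11 for Sult1b1 (adjusted p = 0.154), an enzyme of thyroid hormone sulfation. A second Sult1b1 probe (chr5:87942561-87942620, mm9, minus strand) gave 0.42 ± 0.14 (adjusted p = 0.0318), or 1.34-fold, and was not called either. Sult1d1, which sulfates catecholamines, differed by 0.19 ± 0.18 (adjusted p = 0.487), and Sult1c2 by 0.10 ± 0.14 (adjusted p = 0.65). The 95% intervals of all 8 sulfotransferases except Sult1a1, Sult1c1, Sult2a8 and Sult2b1 held 0, and that of Sult4a1 reached 0.65, beyond a 1.5-fold change.

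**Figure D3:**
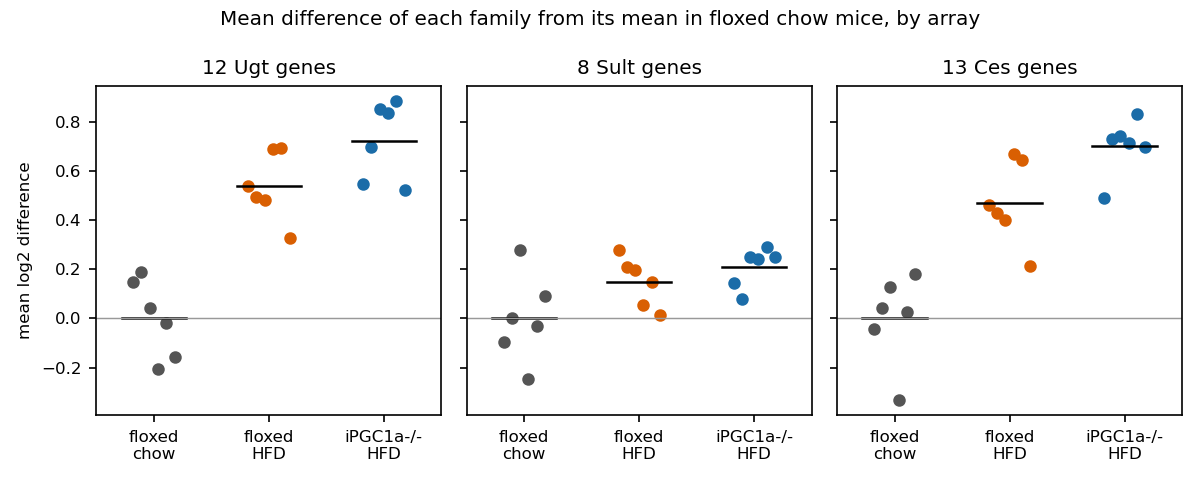
Mean log2 difference from the floxed chow mean over the 12 Ugt, 8 Sult and 13 Ces genes (y axis), with 1 point per array and a line at each group mean. For Ugt and Ces genes every HFD array lies above all chow arrays (Ugt 0.33 to 0.69 in floxed HFD against at most 0.19 on chow), and for Sult genes the groups overlap.

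In the comparison of genotypes on HFD, none of the 33 genes was called, against 0.135% of all genes, and none had an adjusted p of 0.05 or lower, against 0.227%. By the same limma test, 5 of the 33 genes had an unadjusted p under 0.05, or 15.2%, against 9.29% of all genes. Of these, Ugt2b5, Ugt1a10, Ugt2b34 and Ces1g had values above 0, and Ces3b passed the filter only through the iPGC1a-/- arrays, so that its direction was set by its selection. The median log2 difference of the 33 genes, iPGC1a-/- minus floxed, was 0.17, against 0.0059 over all genes. Values above 0 numbered 27 of 33, Ces3b included, against 11183 of all 21542 genes. No gene of the 33 had groups that lay apart, against 0.961% of all genes. Both comparisons use the same 6 floxed HFD arrays, so the values of a gene in the 2 comparisons are not independent.

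Ces1d, a triacylglycerol hydrolase, had a genotype difference of 0.59 ± 0.36 on the log2 scale (95% interval -0.15 to 1.33, adjusted p = 0.607), and of 0.35 without floxed HFD replicate 6. Its log2 signal (chr8:95698949-95699008, mm9, minus strand) ran from 5.77 (median 7.10) to 8.32 on chow, from 5.83 (median 7.04) to 7.68 in floxed HFD mice and from 7.0 (median 7.61) to 7.97 in iPGC1a-/- mice. All 6 iPGC1a-/- arrays lay within the range of the chow arrays, which was the widest. Ces1g ran from 5.74 (median 6.07) to 7.08 on chow, from 6.08 (median 6.68) to 7.14 in floxed HFD mice and from 6.78 (median 7.04) to 7.30 in iPGC1a-/- mice, with a genotype difference of 0.42 ± 0.19 (adjusted p = 0.501). For Ces3b, the signal ran from 4.41 (median 4.65) to 4.92 on chow, from 4.80 (median 4.91) to 5.07 in floxed HFD mice and from 4.90 (median 5.28) to 5.57 in iPGC1a-/- mice. Its probe was well above background on 1 of 6 floxed HFD and 5 of 6 iPGC1a-/- arrays, and its genotype difference is not read as a result.

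Among glucuronosyltransferases, the genotype difference was 0.45 ± 0.21 for Ugt2b5 (adjusted p = 0.509) and 0.38 ± 0.23 for Ugt2a3 (adjusted p = 0.608). Ugt1a10 ran from 7.84 (median 7.87) to 8.95 on chow, from 8.15 (median 8.48) to 8.75 in floxed HFD mice and from 8.5 (median 8.79) to 9.30 in iPGC1a-/- mice, a difference by genotype of 0.40 ± 0.17 (adjusted p = 0.487). The genotype difference of Ugt2a1 was -0.08 ± 0.11 (adjusted p = 0.85). Among sulfotransferases, Sult4a1, a brain isoform, differed by -0.27 ± 0.17 (adjusted p = 0.62), and it ran from 5.19 (median 5.24) to 5.44 on chow, from 5.21 (median 5.38) to 6.63 in floxed HFD mice and from 5.15 (median 5.25) to 5.59 in iPGC1a-/- mice. Here 1 floxed HFD array, replicate 1, stood above all others, and without it the genotype difference of Sult4a1 was -0.05. The genotype difference was 0.19 ± 0.11 for Sult2b1 (adjusted p = 0.583) and 0.18 ± 0.23 for Sult1a1 (adjusted p = 0.831).

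The genes that feed, complete or undo these reactions were looked at in lists. UDP-glucuronic acid comes from UDP-glucose through Ugdh, and of 6 genes of its supply, transport and removal, Ugdh was higher on HFD (log2 fold change 1.01, adjusted p = 1.96e-07) and Gusb, the lysosomal enzyme that removes glucuronic acid, was lower (-0.80, adjusted p = 0.00201). For Ugdh all 6 HFD arrays (13.39 to 13.63) lay above the chow arrays (12.27 to 12.74). Of 14 genes of PAPS synthesis, sulfate transport and sulfatases none was called, and their median log2 fold change was 0.03. Of 16 other esterases and lipases measured, 4 were higher and none lower: Bche (1.38, adjusted p = 1.01e-06), the acylglycerol and drug esterase Aadac (1.37, adjusted p = 0.000639), the epoxide hydrolase Ephx2 (0.83, adjusted p = 0.00197) and the cholesteryl ester hydrolase Nceh1 (0.74, adjusted p = 0.00103). Of 7 other conjugating enzymes measured, the N-acetyltransferase Nat8 was higher (0.73, adjusted p = 9.74e-05).

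Of 10 transporters of conjugates and drugs, 5 were higher and 1 lower on HFD. Abcc2, the apical pump for glucuronides and other conjugates, had a log2 fold change of 1.13 (adjusted p = 2.5e-05), its relative Abcc6 one of 1.13 (adjusted p = 7.12e-06), and the drug pumps Abcb1b and Abcb1a 0.83 (adjusted p = 0.00175) and 0.75 (adjusted p = 0.0033). The fifth, Abcc5 (0.64, adjusted p = 0.00139), and the one that was lower, Abcg2, a pump for sulfate conjugates and urate (-0.63, adjusted p = 0.000109), are named after their values were seen. Among 20 known regulators of these genes, 18 were not called. Ppara, the fatty acid receptor, was higher (1.63, adjusted p = 7.84e-09), and Nr1h4, the bile acid receptor, was lower (-0.78, adjusted p = 0.000719). In the genotype comparison none of the 73 genes measured in these lists was called.

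**Figure D4:**
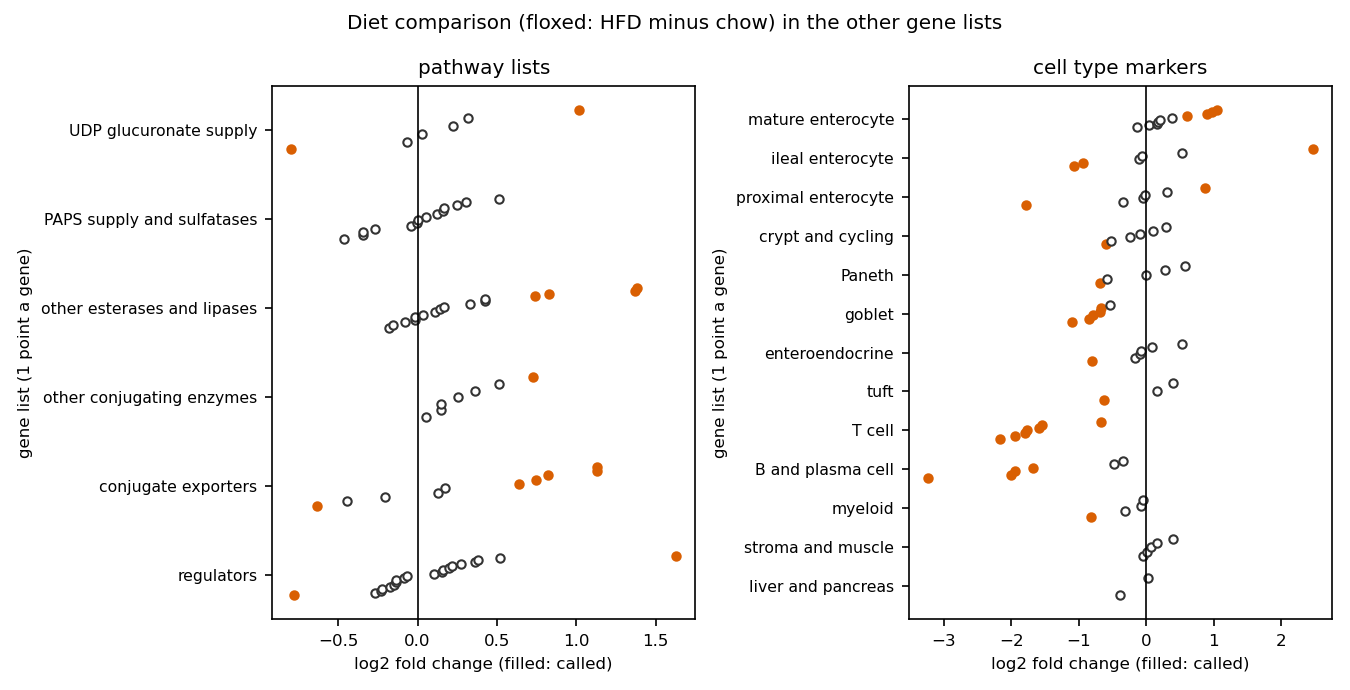
Log2 fold change on HFD against chow in floxed mice (x axis) of the genes in 6 lists around the 33 enzymes (left) and in 13 lists of cell type markers (right), with 1 point per gene and called genes filled. On the left 12 genes are called higher and 3 lower, and on the right 6 higher and 24 lower, among them all 7 T cell markers.

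Markers of the cell types in the suspension moved with diet as well. In bulk RNA, fewer cells of a type and less RNA per cell cannot be told apart. All 7 T cell markers were lower on HFD, with log2 fold changes from -0.66 to -2.17 (Gzma, a granzyme gene), and their mean log2 signal ran from 10.09 to 11.72 in chow arrays and from 9.21 to 9.84 in floxed HFD arrays. Of 6 B and plasma cell markers 4 were lower (mean log2 signal 8.16 to 9.42 on chow and 6.60 to 8.14 on HFD), and of 6 goblet cell markers 5 were lower (15.45 to 15.90 and 14.42 to 15.50). Of 10 mature enterocyte markers 4 were higher and none lower (14.60 to 15.45 on chow and 15.55 to 15.81 on HFD), led by the lactase gene Lct (1.05, adjusted p = 0.00526). All 6 ileal enterocyte markers passed the filter, and they were mixed, with Fgf15 higher (2.47, adjusted p = 0.000415) and the bile acid transporters Slc10a2 (-1.07, adjusted p = 0.023) and Slc51b (-0.94, adjusted p = 3.2e-05) lower. The other lists held 1 lower gene each for crypt and cycling, Paneth, enteroendocrine, tuft and myeloid cells, 1 higher and 1 lower among proximal enterocyte genes, and none for stroma and muscle or for liver and pancreas, where Alb, Cpa1 and Prss2 did not pass the filter. The part of these shifts in the higher Ugt and Ces signal on HFD was not tested, and by genotype none of the 72 markers was called.

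The 33 genes were also set against their RefSeq promoters (GRCm38.p6, from 250 bases before to 50 after each start site), of which 29 were found for 26 genes. Short motifs bound by known regulators (7 in all, none contained in another) were searched on both strands. The sequence TTTATNG, bound by the intestinal factor Cdx2, occurred in 3 of the 29 (Ugt2a3, Ces1g and Ces3b), or 10.3%, against 10.9% of all 32851 promoters, and GCGTG, the core bound by Ahr, in 4 of 29 (Sult1b1, Sult1d1 and both of Sult2b1), or 13.8%, against 32.4%. CAAAGTCCA, bound by Hnf4, occurred in 1 (Sult1b1), against 0.475%. The antioxidant element TGACNNNGC was in none of them, against 12.4% of all promoters, and a direct repeat of AGGTCA with 1 base between the copies (0.04%), a direct repeat of AGTTCA with 3 bases between them (0%) and the Hnf1 palindrome (0.009%) were in none either. Of the called genes with a promoter in the table (all but Ces2b and Ces3a), Ugt2a3 was the only one that held any of these motifs. Its promoter (chr5:87337146-87337445, GRCm38.p6, minus strand) is shown with the TTTATNG match in capitals.
Ugt2a3: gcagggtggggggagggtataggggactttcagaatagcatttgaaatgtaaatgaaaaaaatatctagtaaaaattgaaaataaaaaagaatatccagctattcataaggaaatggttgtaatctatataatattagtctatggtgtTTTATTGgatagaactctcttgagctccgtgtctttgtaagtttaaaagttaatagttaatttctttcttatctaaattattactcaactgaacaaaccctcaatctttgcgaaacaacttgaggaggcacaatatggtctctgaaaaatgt

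A match is a description of the letters in this window, and the array did not measure binding there.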

How the data were processed

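Ileum cells of 18 mice (6 per group) were profiled on Agilent one-colour arrays, and groups, replicate numbers and diets came from the sample labels. The authors deposited the spot intensity of every array as Agilent Feature Extraction 10.10.1.1 writes it (median and mean signal, local background, and a processed signal with background subtracted), without normalization between arrays. A second deposited file holds the authors' log2 values. According to the methods, median signals were filtered and put on the log2 scale, corrected for the washing bath and the labelling serial, normalized with qsmooth and tested with limma. The bath and serial of an array are not given in the sources used here, so that correction was not repeated, and the log2 file served as an alternative.

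Here, control spots and spots marked as outliers (between 46 and 153 on an array) were dropped, 0 spots were saturated, and spots of a probe were averaged (56605 probes). The filter asked for a well above background flag in 5 or more of the 6 arrays of some group and left 32726 probes of 21542 genes. Log2 median signals went through a re-implementation of qsmooth (smoothing window 0.05; R 4.3.3 and its data.table package, 1.17.8), and the 3 groups were fitted in 1 model with limma 3.58.1 (lmFit, eBayes), with Benjamini-Hochberg adjustment over all 32726 probes. SE, 95% intervals and p-values are from that fit. Calls needed an adjusted p of at most 0.05 together with a change of more than 1.5-fold at the brightest probe of the gene. The procedure was also run on simulated data with known changes, and the outcome is not reported here. Those values were drawn independently for each probe, so shifts shared by many genes were not represented. Levels of different probes are not comparable, and fold changes near background understate the change. The 6 mice a group and signal over background set the precision (median SE of a log2 fold change 0.104).

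The 33 genes, the pathway and marker lists and the alternatives were chosen with earlier results of these data known. Genes are named by rule: all 33, with full values for those called and, in families with fewer than 3 called, the largest differences up to 3, and from each list the called genes, at most the 4 largest. Probe coordinates are those of the array files (mm9). The files name no exon. All 33 names matched a symbol in RefSeq's list for GRCm38.p6, used for names and promoters. Plots were drawn with matplotlib 3.10.9 in Python 3.11.15.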

Additional observations from a re-analysis of the deposited data

Results flagged for a closer look

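In groups of 6 arrays, 1 array lay far from the other 5 in 7 of 99 group and gene combinations (by Dixon's gap criterion at the 95% level), where chance gives about 1 in 20. In floxed chow mice, replicate 4 was the lowest for Ugt2a3 (8.79, next 10.22), Sult1b1 (13.35, next 13.85) and Ces1c (5.18, next 5.57). Chow replicate 3 was the highest for Ugt1a10 (8.95, next 8.16), and chow replicate 1 the highest for Ces1e (9.75, next 9.22). In floxed HFD mice, replicate 1 was the lowest for Ces2b (13.51, next 13.84) and the highest for Sult4a1 (6.63, next 5.48). None of the iPGC1a-/- arrays met this criterion for any of the 33 genes. Without chow replicate 4 the 10 genes higher on HFD became 9, with Ugt2a1 lost.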

How the results depend on the processing

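The 10 genes called higher on HFD were all called again under every other background correction, normalization, filter, block and variance setting tried, with 10 to 12 genes called and none lower. With no fold threshold the count was 17, none of them lower. Leaving out 1 array at a time gave 9 to 12 genes for diet and 0 for genotype. Of the 10, only Ugt2a1 lost its call in these fits, and none of the 10 changed sign for diet in any setting. Of the 33 genes, 4 changed sign in at least 1 setting for diet (Ces1d, Ces1f, Ugt2b35 and Ugt3a2) and 6 for genotype (Sult1c2, Sult1d1, Ugt3a2, Ces1c, Ces1e and Ces2a), none of them with a reported log2 value beyond 0.18 for diet or 0.081 for genotype. With the fold threshold kept, genes gained in some settings were Ugt2b37, Ces1e and Ces1g as higher and, without floxed HFD replicate 1, Sult1a1 as lower. No genotype difference of the 33 genes was called in any setting. Deviations of same-numbered arrays had correlations of -0.22 to 0.35. Arrays with different numbers were not compared in this way, so whether the replicate numbers pair the mice was not determined. With the replicate block 10 genes were called for diet and 0 for genotype. With slide as a block the counts were the same. Values of genes with low signal moved with the background treatment. With normexp and with the processed signal, the log2 fold change of Ces3a on HFD was 0.78 and 1.54, the genotype difference of Ces3b was 0.15 and 0.98, and that of Sult4a1 was -0.16 and -0.52. The genotype difference of Sult2b1 was 0.12 with the processed signal, and that of Sult1a1 ran from 0.088 (without floxed HFD replicate 6) to 0.31 (without floxed HFD replicate 1), with 0.29 without iPGC1a-/- replicate 2 and 0.09 without replicate 5. The authors' log2 table held 32 of the 33 genes. A p that misses the threshold does not show that values did not differ: the 95% interval of the genotype difference reached 1.33 for Ces1d.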
